A study of Mus musculus with 8 samples.

Results

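Long clusters of cytosines, each spanning at least 400 bp from its first to its last position, were taken from a study of DNA methylation in mouse muscle stem cells. The set comprised 804 of the 27878 clusters that the authors listed in 2 files of significant and not significant clusters, or 2.88% of them, and was chosen by length alone. The cells carried the reporter Tg:Pax7-nGFP/+, in which the regulatory sequence of Pax7 drives a nuclear green fluorescent protein, and were sorted from 1 animal per sample. There were 4 samples labelled Fixated, treated with 0.5% paraformaldehyde, and 4 labelled Live. The sample titles of the fixed cells begin with T0 and those of the live cells with T3, so fixation and whatever these titles stand for cannot be told apart. The design text puts fixation after isolation, whereas the series title speaks of fixation in situ. Methylation was read by reduced representation bisulfite sequencing, with 95 ng of DNA per sample. The values used here are cluster positions and the authors' verdict on each cluster. Methylation levels and read depth per sample were not analysed here, so no comparison across animals was made, and the identity of the sorted cells was not checked against markers.

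Reduced representation sequencing reads fragments cut at CCGG, and so samples mainly sequence that is rich in CpG dinucleotides. CpG islands, stretches of such sequence, lie at many transcription starts. At genes that pattern the embryo, islands tend to be long, to extend into the gene body and to be bound by Polycomb proteins in cells where the gene is silent. The length of a cluster is the distance between its first and last position, not a methylation level. CpG spacing and coverage inside the clusters were not measured here.

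As examples of upstream sequence inside a long cluster, the 250 bases before a transcription start are given for the 6 longest clusters that contain them whole, 1 start per gene. Only starts at the outer bound of a protein-coding gene, with no gene over these bases, were used. This held for 81 of the 275 listed promoter windows that a long cluster overlapped. As 28.5% of 780 long clusters contained a start, the examples do not stand for the whole set. Sequences are from RefSeq (GRCm38.p6, the assembly that mm10 names) and run 5′ to 3′ on the strand of the gene, with each CpG in capitals. They lie at chr13:31806396-31806645 (+ strand, Foxc1), chr2:71546755-71547004 (- strand, Dlx2), chr7:81992300-81992549 (- strand, Bnc1), chr2:137116521-137116770 (- strand, Jag1), chr9:71215539-71215788 (+ strand, Aldh1a2) and chr15:27466427-27466676 (+ strand, Ank).
Foxc1: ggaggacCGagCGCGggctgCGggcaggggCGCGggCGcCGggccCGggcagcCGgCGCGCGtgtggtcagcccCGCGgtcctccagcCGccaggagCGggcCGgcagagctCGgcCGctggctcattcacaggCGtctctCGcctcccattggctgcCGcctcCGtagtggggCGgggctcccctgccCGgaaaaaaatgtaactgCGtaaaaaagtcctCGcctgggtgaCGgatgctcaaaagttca
Dlx2: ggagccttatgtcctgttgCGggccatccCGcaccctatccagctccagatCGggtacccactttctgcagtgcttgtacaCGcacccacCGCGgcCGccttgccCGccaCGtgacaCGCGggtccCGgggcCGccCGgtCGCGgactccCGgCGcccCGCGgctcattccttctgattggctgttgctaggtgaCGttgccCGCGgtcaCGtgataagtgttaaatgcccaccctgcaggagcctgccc
Bnc1: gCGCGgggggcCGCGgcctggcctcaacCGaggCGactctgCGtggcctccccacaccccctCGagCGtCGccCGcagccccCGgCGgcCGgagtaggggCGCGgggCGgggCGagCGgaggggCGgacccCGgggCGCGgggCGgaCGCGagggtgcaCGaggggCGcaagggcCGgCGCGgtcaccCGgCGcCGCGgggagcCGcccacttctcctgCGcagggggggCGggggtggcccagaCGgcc
Jag1: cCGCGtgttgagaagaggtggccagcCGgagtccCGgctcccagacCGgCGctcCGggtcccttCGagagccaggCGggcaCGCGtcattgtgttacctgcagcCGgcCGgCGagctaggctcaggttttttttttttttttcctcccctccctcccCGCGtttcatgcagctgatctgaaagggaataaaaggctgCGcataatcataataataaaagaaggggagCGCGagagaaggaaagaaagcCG
Aldh1a2: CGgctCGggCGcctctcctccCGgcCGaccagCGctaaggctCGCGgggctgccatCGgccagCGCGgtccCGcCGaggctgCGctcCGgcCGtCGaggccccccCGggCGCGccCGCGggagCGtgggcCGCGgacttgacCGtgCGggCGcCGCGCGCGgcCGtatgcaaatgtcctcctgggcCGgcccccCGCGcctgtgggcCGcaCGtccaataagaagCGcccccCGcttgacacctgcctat
Ank: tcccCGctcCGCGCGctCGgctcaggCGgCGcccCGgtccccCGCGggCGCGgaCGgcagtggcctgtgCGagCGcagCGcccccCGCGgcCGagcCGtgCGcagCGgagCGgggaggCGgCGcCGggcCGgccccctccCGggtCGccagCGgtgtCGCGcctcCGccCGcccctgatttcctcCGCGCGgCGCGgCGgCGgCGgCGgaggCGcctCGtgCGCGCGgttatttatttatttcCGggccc

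Foxc1 encodes a forkhead factor of mesoderm and eye development, and its 250 bases held 29 CpGs. There were 24 at Dlx2, a homeodomain factor of the forebrain, 39 at Bnc1, a zinc finger protein of epithelia, and 20 at Jag1, a ligand of Notch receptors. Aldh1a2, whose product makes retinoic acid, had 40, and Ank, which encodes a membrane protein of pyrophosphate transport, had 49. The share of G and C ranged from 57.2% at Jag1 to 83.6% at Bnc1. The motif CCGG, which reads the same on both strands and contains a CpG, occurred 3 times at Dlx2, 4 times at Aldh1a2, 5 times at Foxc1, Bnc1 and Ank, and 6 times at Jag1.

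The same content was counted in all 21262 listed promoter windows of protein-coding genes, each running from 250 bases before to 50 after a start. A long cluster overlapped 275 windows of 250 genes, or 1.29%. Those 275 had a median of 30 CpGs (quartiles 22 and 39), against 24 (15 and 33) in the 1356 windows met by shorter clusters of 2 bp or more, 27 (20.5 and 36) in the 447 met only by single positions, and 11 (3 and 23) in the 19184 met by none. Median G and C content followed the same order, with 70.3% under long clusters, 67.0% under single positions, 64.7% under shorter clusters of 2 bp or more and 55.3% under none. CCGG was present in all 275 windows under long clusters, in all 447 under single positions, in 99.8% of those under the other shorter clusters, in 58.1% of those under none and in 62.2% of all windows. The assay reads fragments cut at CCGG, and a cluster can be listed only where cytosines were read. The contrast with windows met by none is therefore not read as a finding about the clusters. How much of it comes from this selection was not tested. The quartiles of the groups overlap, and a window counts once in the class of the longest cluster that meets it.

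Among the long clusters the median length was 534.5 bp, with quartiles of 458.75 and 675.25 bp and a maximum of 2046 bp, against a median of 85 bp in the 27074 shorter clusters. Although few, they made up 15.0% of the summed length of all clusters (487713 of 3257029 bp). Only 51 reached 1000 bp and 8 reached 1500 bp. At the boundary, 7 clusters measured exactly 400 bp, among them those at the homeobox gene Barx2, at Prdm13, a regulator of neuronal fate, and at the ephrin ligand gene Efnb2. A further 5 fell 1 bp short, including those at Hoxc12 and at Celsr3, which encodes a cadherin of planar cell polarity. The limit thus falls within a run of lengths and not at a gap.

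**Figure D1:**
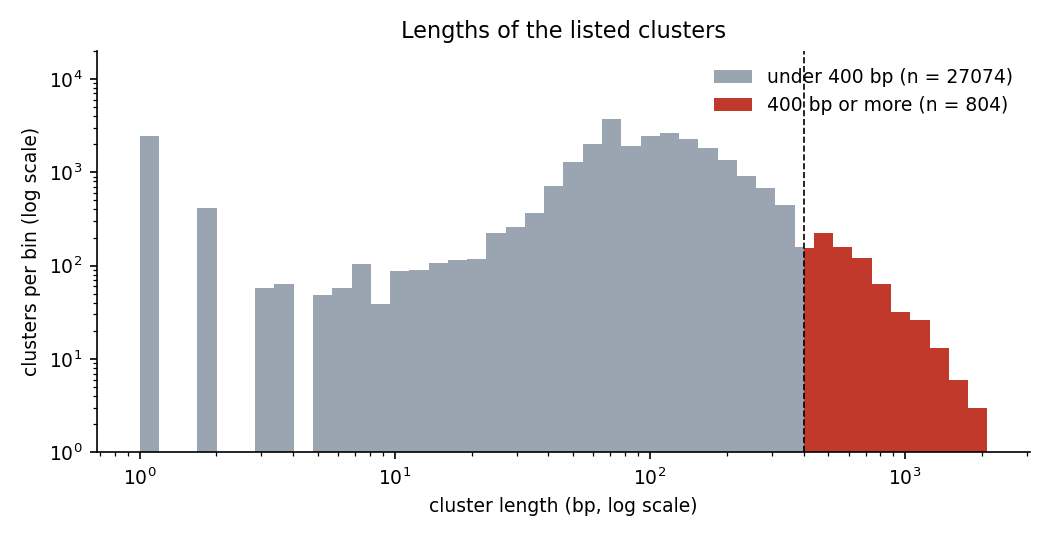
Number of clusters (log scale) by cluster length in bp (log scale), with clusters of 400 bp or more in red and the dashed line at 400 bp. The bars pass from grey to red without a gap, and the longest cluster measures 2046 bp.

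None of the 804 long clusters was among those the authors called different between fixed and live cells. A count of 0 of 804 allows a called share of up to 0.373%, for counting error only. Over all clusters 21 were called, or 0.0753%, so 0.606 calls would fall on 804 clusters at that share, close to the count seen. The called clusters measured at most 221 bp.

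Long clusters lay close to genes. A RefSeq gene with 3000 bp on each side held 779 of the 804, or 96.9% (exact Clopper-Pearson 95% interval 95.4 to 98.0%, which covers counting error only, here and below), against 78.9% (78.4 to 79.3%) of the shorter clusters. A protein-coding gene was among them for 734 long clusters (91.3%, against 69.0% of the shorter ones), a long noncoding RNA gene without a protein-coding gene for 37 (4.60%, against 7.66%), and other kinds of gene only for 8. Because neighbouring clusters are not independent and the set was chosen with earlier results of these data known, shares are given with intervals and without a test.

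Relative to gene ends, 82.0% of the long clusters (79.1 to 84.6%) lay within 3000 bp of either outer bound of a gene, against 49.0% (48.4 to 49.6%) of the shorter clusters. Within a gene but more than 3000 bp from every bound lay 14.9% of the long clusters (12.5 to 17.6%) and 29.8% of the shorter ones. Outside genes and these windows lay 3.11% (2.02 to 4.56%) and 21.1%. The order against the shorter clusters was the same with protein-coding genes alone, where 73.9% of the long clusters and 38.9% of the shorter ones were near a bound, and 8.71% and 31.0% lay outside. With windows of 1000 bp, 29.2% of the long clusters and 42.3% of the shorter ones were inside a gene away from its ends.

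Long clusters were near 5′ ends more often than near 3′ ends. Strand was known for 17491 of 21896 protein-coding genes, through their listed starts, and for no gene on chromosome 18 or the mitochondrial genome, which leaves 780 long clusters. Of these, 53.6% (50.02 to 57.1%) lay within 3000 bp of the outer 5′ end of a protein-coding gene, against 25.5% (25.01 to 26.1%) of the shorter clusters. Near a 3′ end lay 14.4% (11.97 to 17.02%) and 10.8% (10.4 to 11.1%). Near a 3′ end and no 5′ end lay 5.64% (4.13 to 7.499%) of the long and 6.09% of the shorter clusters, whose intervals overlap. Within 1000 bp of any listed start lay 433 of the 780, or 55.5% (52.0 to 59.0%), against 24.6% of the shorter clusters, and 28.5% of the long clusters contained a start. A longer cluster meets a window more easily, so the midpoint was also used. By the midpoint 51.7% of the long clusters were within 1000 bp of a start, against 24.2%. Where every protein-coding gene at a cluster had a listed start, the shares were 74.0% of 549 long and 40.0% of 14232 shorter clusters.

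Midpoints of long clusters leaned to the transcribed side of the start. Of the 502 within 3000 bp of a listed start, 379 lay downstream and 122 upstream, so 75.5% were downstream, against 65.8% of the 8601 shorter clusters in the same range. The median midpoint of the long clusters in that range was 252 bp downstream, against 180 bp. Over all 780, the median distance to a start in either direction was 872 bp (quartiles 262 and 12071.25 bp), against 10801 bp for the shorter clusters.

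**Figure D2:**
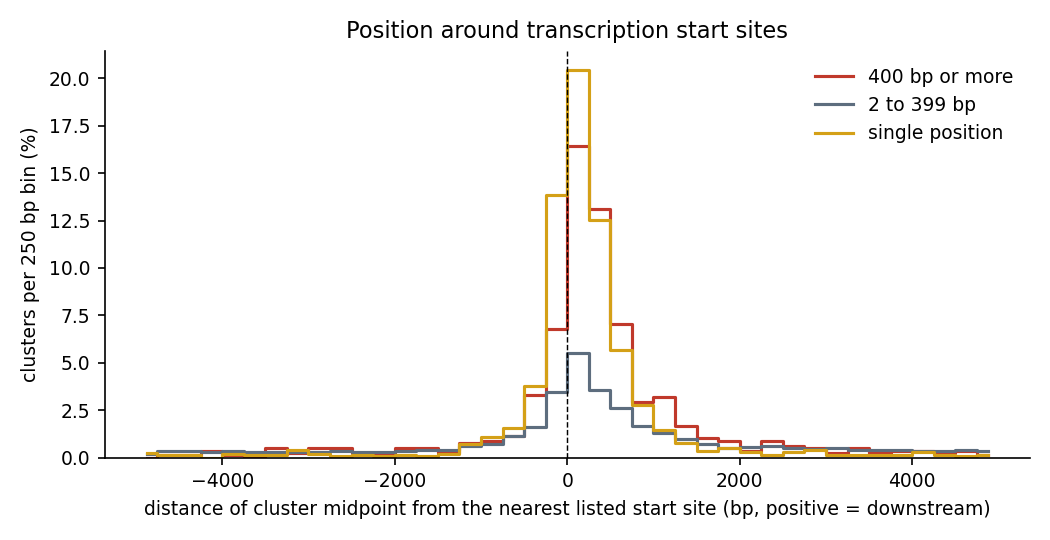
Share of clusters (%) in 250 bp bins of the distance between the cluster midpoint and the nearest listed transcription start (bp, positive downstream), for clusters of 400 bp or more, of 2 bp up to that limit and of a single position. Long clusters and single positions pile up around the start and mostly downstream of it, and the clusters between these lengths form a lower peak.

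The shorter clusters were not alike, and single positions resembled the long clusters in place but not in the genes they held. Of the 2385 single positions on chromosomes with listed starts, 61.7% (59.7 to 63.7%) were within 1000 bp of a start. The share was 35.3% at 2 to 50 bp, 16.1% above that up to 100 bp, 17.4% above that up to 200 bp and 30.1% from there to the 400 bp limit. Within the long set it went on from 51.4% (46.9 to 55.9%) from 400 bp to below 600 bp to 59.6% (53.0 to 65.9%) from 600 bp to below 1000 bp and 77.6% (63.4 to 88.2%) at 1000 bp or more. Clusters with no gene within 3000 bp made up 6.67% of the single positions, 17.8% at 2 to 50 bp and 25.1% above 50 bp up to 100 bp. That share was 23.7% above 100 bp up to 200 bp and 16.6% from there to the 400 bp limit. It was 3.52% from 400 bp to below 600 bp, 2.89% from there to below 1000 bp and 0 of 51 at 1000 bp or more, which allows up to 5.88%. Genes of the developmental families described below were held by 5.58% (4.71 to 6.56%) of the single positions. The share was 7.16% at 2 to 50 bp, 5.53% above that up to 100 bp and 7.21% above that up to 200 bp. It was already 10.7% (9.60 to 11.9%) from there to the 400 bp limit. From 400 bp to below 600 bp it was 18.6% (15.3 to 22.2%), with 21.5% and 23.5% in the next classes, whose intervals overlap.

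**Figure D3:**
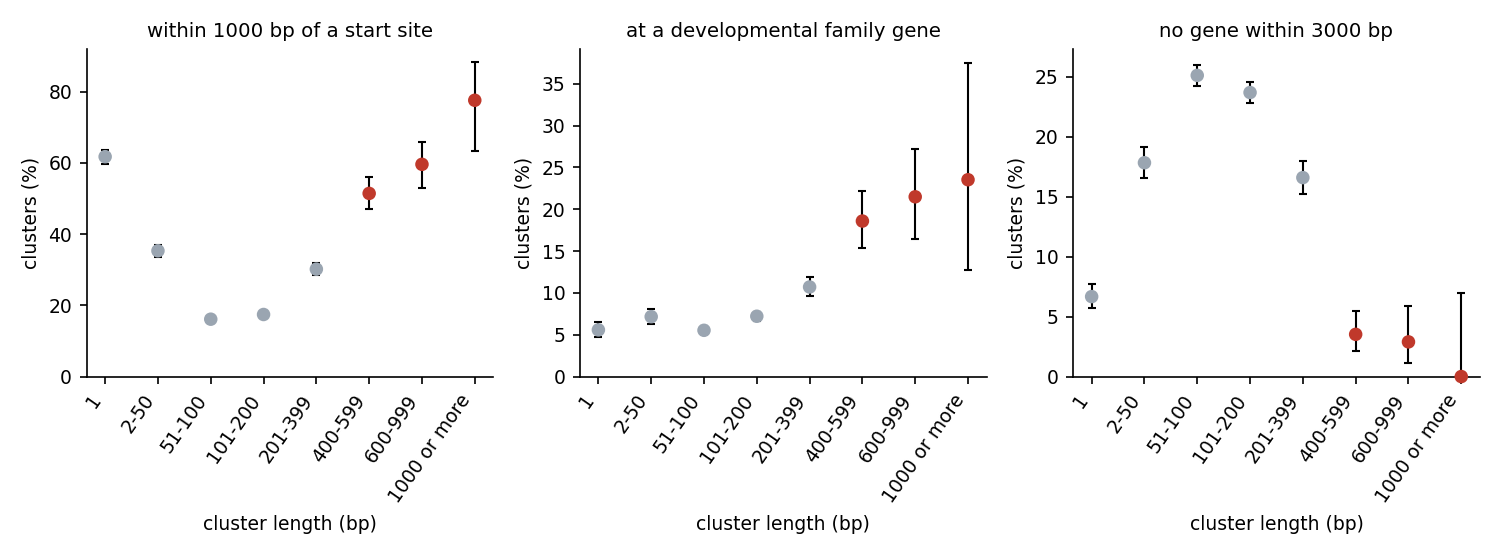
Share of clusters (%) by cluster length in bp that lie within 1000 bp of a listed start (left), hold a gene of the developmental families (middle) or have no gene within 3000 bp (right), with exact 95% intervals as bars and clusters of 400 bp or more in red. The left panel is high at both extremes of length, and the middle panel is high only for the longer clusters.

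The 25 longest clusters, all of at least 1187 bp, lay on 15 chromosomes. A bound of a gene was within 3000 bp of 24 of them, and 7 were at a gene of the developmental families. Near the top of the order was that of 1836 bp at Foxc1 (chromosome 13, 31806062 to 31807897). The clusters at Flt1, a receptor for vascular endothelial growth factor (1684 bp; chromosome 5, 147724980 to 147726663), at Dlx2 (1545 bp; chromosome 2, 71545461 to 71547005) and at the bone morphogenetic protein gene Bmp2 (1501 bp; chromosome 2, 133552062 to 133553562) followed. The midpoint lay 333 bp downstream of a start of Foxc1, 190 bp downstream of one of Flt1 and 521 bp downstream of one of Dlx2.

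Most of the 25 were at genes outside the developmental families. A cluster of 1594 bp on chromosome 17 (34836496 to 34838089) was shared by the neighbours Stk19, the decapping exonuclease gene Dxo and Skiv2l, which encodes an RNA helicase. Icmt, whose product methylates prenylated proteins, held 1500 bp, the heterochromatin protein gene Bahd1 1492 bp and Crhr1, the receptor for corticotropin-releasing hormone, 1468 bp. Cell surface genes followed, with 1420 bp at Sdk2, an immunoglobulin adhesion molecule of synapses, and 1419 bp at Adgrl1, a latrophilin receptor. The RNA-binding protein gene Msi1 held 1380 bp, the zinc finger gene Bnc1 1379 bp, the transcriptional coactivator gene Zmiz1 1360 bp and Wac 1315 bp. At Tlcd4 (1288 bp) the cluster was inside the gene and far from its outer bounds, but its midpoint lay 198 bp from a listed start. Further ones among the 25 were at Wnt7b (1261 bp), the X-linked zinc finger gene Zfx (1261 bp), the Notch ligand gene Jag1 (1256 bp), the LIM homeodomain gene Lmx1b (1248 bp), the small GTPase gene Arf6 (1221 bp), the retinoic acid synthesis gene Aldh1a2 (1208 bp) and Fryl (1187 bp), along with those at Rn18s-rs5 and Gm34301 given further on.

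Genes of developmental families held long clusters more often than genes at large. In 24 families of transcription factors and of signalling or adhesion molecules, 134 of 641 genes (20.9%, 17.8 to 24.3%) had a long cluster in the gene or within 3000 bp, against 788 of all 21896 protein-coding genes (3.599%, 3.36 to 3.85%). More of these genes also had a cluster of any length, 85.2% against 47.9%. Among genes with a cluster, 24.5% (20.99 to 28.4%) of the family genes and 6.58% (6.10 to 7.09%) of the genes outside the families had a long one. Counted by cluster, 159 of the 804 long clusters (19.8%, 17.1 to 22.7%) were at a family gene, against 6.83% (6.53 to 7.13%) of the shorter clusters, and among clusters with a protein-coding gene the shares were 21.7% and 9.89%. Without the Hox genes the cluster shares were 18.03% and 6.39%.

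Transcription factors accounted for most of these genes. Of 368 genes in 16 families, 112 (30.4%, 25.8 to 35.4%) held a long cluster, and in each of the 16 families the share of genes exceeded that of all protein-coding genes, with the interval above it in 15. The exception was the developmental bHLH family. Of the clusters at each of the 16 families, between 4.51% and 13.6% were long, against 3.78% of all clusters at protein-coding genes, and the interval lay above that share in 8 families and included it in 8. Of the 273 signalling and adhesion genes in 8 families, 22 (8.06%, 5.12 to 11.9%) held one, and the interval of a single family, Wnt and Frizzled, lay above the share of all genes. Of the clusters at each of these 8 families, between 1.235% and 7.62% were long, and the interval included 3.78% in all 8. Counted by cluster, 2.86% (1.82 to 4.26%) of the long and 1.965% (1.80 to 2.14%) of the shorter clusters were at such a gene. These 2 intervals overlap.

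**Figure D4:**
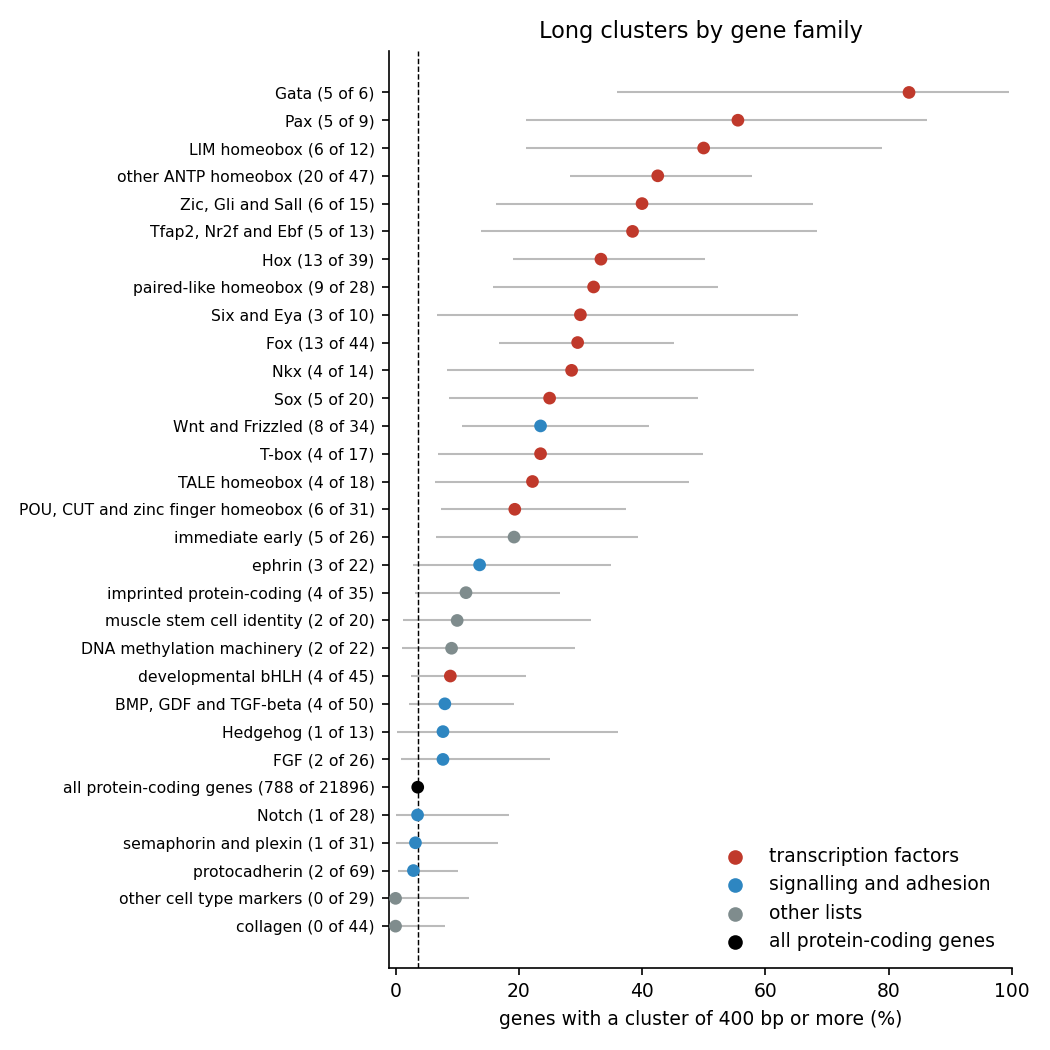
Share of genes (%) with a cluster of 400 bp or more in the gene or within 3000 bp, by gene family or list, with exact 95% intervals as lines, the number of genes in parentheses and the share of all protein-coding genes as a dashed line. The 16 transcription factor families in red lie between 8.89% and 83.3%, the 8 signalling and adhesion families in blue between 2.90% and 23.5%, and 2 lists are at 0.

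Homeobox genes, which encode homeodomain transcription factors of body plan and cell identity, formed the largest block. The Antennapedia-class genes outside the Hox complexes held long clusters at 20 of 47 genes (42.6%), with the longest at Dlx2, then 934 bp at Mnx1, a motor neuron factor, 884 bp at Gbx2, which acts at the midbrain to hindbrain boundary, and 820 bp at Pdx1, the pancreatic factor. Among the paired-like genes 9 of 28 held one, among them Alx4 (712 bp), which patterns limb and skull, Shox2 (684 bp), a limb and heart pacemaker factor, and Rax (628 bp), an eye field factor. The LIM homeobox genes had 6 of 12, with Lmx1b, Isl2 (774 bp), Lmx1a (661 bp) and Lhx2 (592 bp). Of the 14 Nkx genes 4 had one, at Nkx6-1 (652 bp), Nkx3-2 (592 bp), Nkx2-4 (474 bp) and Nkx2-9 (401 bp). The TALE genes had 4 of 18, namely Meis2 (969 bp), a Hox cofactor, and the Iroquois genes Irx2 (601 bp), Irx4 (598 bp) and Irx1 (557 bp). The POU, CUT and zinc finger homeobox genes had 6 of 31, at the chromatin organizer gene Satb1 (722 bp), Pou3f1 (695 bp), Pou2f1 (493 bp) and Onecut2 (460 bp) among others. The sine oculis homeobox genes were counted with the eyes absent genes, which are not homeobox genes. Together they had 3 of 10, with 741 bp at Six6, 560 bp at Six3 and 424 bp at Eya2.

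At the Hox genes, which set position along the body axis, 14 of 133 clusters were long and lay at 13 of 39 genes. Clusters of the Hox complexes with no Hox gene within 3000 bp are not in this count. An example is that of 679 bp at Gm14424 and Haglr, between long clusters at Hoxd3 and Hoxd1. The longest, of 799 bp, was shared by Hoxb7 and Hoxb8. Hoxa11 held 792 bp, Hoxd10 and Hoxd11 shared 715 bp, and Hoxd12 held 694 bp. Since neighbouring Hox genes share clusters, these 13 genes are not independent.

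Paired box, forkhead and GATA genes followed. Long clusters were present at 5 of the 9 Pax genes, at Pax7 (1171 bp), Pax5 (959 bp), the B cell factor, Pax2 (602 bp), of kidney and midbrain, Pax6 (437 bp), of the eye, and Pax3 (419 bp). The forkhead genes held 15 at 13 of 44 genes, with Foxd2 (1120 bp) and the thyroid factor gene Foxe1 (815 bp) after Foxc1. Of the 6 Gata genes 5 held one, Gata6 with 1092 bp, Gata3 with 807 bp, Gata5 with 797 bp, Gata2 with 624 bp and Gata4 with 441 bp, which is the highest share of any family but rests on 6 genes (interval 35.9 to 99.6%).

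Of the 15 Zic, Gli and Sall genes 6 held a long cluster. Zic1 and Zic4, zinc finger genes that lie side by side and act in the cerebellum, shared a cluster of 1056 bp, and Zic2 had 739 bp and Sall4, a stem cell factor, 658 bp. Of the 13 Tfap2, Nr2f and Ebf genes 5 held one. Nr2f2, a nuclear receptor of veins and atria, held 891 bp and Tfap2c, a trophoblast factor, 702 bp, with 519 bp at Ebf3 and 471 bp at Nr2e1. The Sox family had 5 of 20, with 918 bp at Sox21, 576 bp at Sox2, the pluripotency and neural factor, 563 bp at Sox17, the endoderm and endothelial factor, and 451 bp at Sox14. The T-box genes had 4 of 17, with 898 bp at Tbx1, 610 bp at Eomes, 483 bp at Tbx18 and 471 bp at Tbx2. The developmental bHLH genes had the lowest share, 4 of 45 (8.89%, 2.48 to 21.2%), at Sim1 (694 bp), Nhlh2 (618 bp), Neurod1 (561 bp) and Bhlhe22 (410 bp).

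Among ligands and receptors, the Wnt and Frizzled genes held long clusters at 8 of 34 genes (23.5%, 10.8 to 41.2%), with Wnt7b, the receptor gene Fzd10 (1108 bp), Wnt3 (678 bp) and Wnt4 (473 bp) at the top. Of the 50 genes of the BMP, GDF and TGF-beta family, 4 held one, at Bmp2, the TGF-beta receptor gene Tgfbr2 (627 bp), Bmp8b (585 bp) and Tgfb1 (546 bp). The ephrin family had 3 of 22, with Efna5 (752 bp), Epha8 (465 bp) and Efnb2 (400 bp). The FGF family had Fgf16 (552 bp) and Fgfr3 (439 bp) among 26 genes, and the Hedgehog genes had Ihh (481 bp), the ligand of growing cartilage, among 13. In the Notch pathway 1 of 28 genes, Jag1, held a long cluster, in the semaphorin and plexin family 1 of 31, Sema6b (505 bp), and among the protocadherins 2 of 69, Pcdh1 (434 bp) and Pcdh19 (433 bp). These last 3 shares lay at or below that of all protein-coding genes, with intervals that include it.

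Several long clusters at the same gene were uncommon. Of the 788 genes 737 held 1, 43 held 2, 7 held 3 and 1, Pitx1, held 4. Pitx1, a homeodomain factor of hindlimb identity, had clusters of 610, 570, 493 and 442 bp over 12285 bp of chromosome 13. Pax7, whose product marks muscle stem cells and whose reporter was used to sort them, had 3 of 20 clusters in the long set. They measured 1171 bp (chromosome 4, 139821268 to 139822438), 758 bp (139832086 to 139832843) and 478 bp (139823971 to 139824448), with midpoints 11115, 504 and 8759 bp downstream of the nearest of the gene's listed starts. The reporter carries regulatory sequence of Pax7, and whether reads at these clusters came from it or from the gene itself was not tested. Pdx1 had 820, 548 and 453 bp, and Nkx6-1, which acts in pancreas and spinal cord, 652, 460 and 428 bp. Hoxd10 and Hoxd11 shared the same 3 clusters. Hic1, which encodes a zinc finger repressor, had 665, 442 and 414 bp within 3742 bp. Bcor, which encodes a Polycomb-associated corepressor, had 486, 417 and 410 bp, the second 75 bp from a start and the others 73158 and 68544 bp downstream of it. Clusters of any length numbered 36 at Bcor, 12 at Hoxd10, 7 at Hoxd11, Hic1 and Pitx1, and 4 at Pdx1 and Nkx6-1.

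Long clusters also lay nearer to each other than shorter clusters lay to them. Another long cluster was within 10000 bp of 108 of the 804 (13.4%), while 4.79% of the shorter clusters had a long one in that range. Any other cluster was within 1000 bp of 41.0% of the long clusters and 20.8% of the shorter ones. Chained with gaps of up to 10000 bp, the 804 formed 743 groups, of which 696 were single clusters and 8 held 3 or more.

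At genes of the developmental families the longest cluster was often away from the start. For the 91 such genes with a listed start, 48.4% (37.7 to 59.1%) had the midpoint of their longest cluster within 1000 bp of it, against 64.8% (60.5 to 69.0%) of 503 other genes with a long cluster. The median distance was 1044 bp and 470 bp. These genes held a median of 5 clusters of any length, against 2, so their longest was picked from more clusters. Among genes chosen as examples after their values were seen, Tbx1 (6432 bp), Six6 (5792 bp), Pax5 (6525 bp) and Wnt3 (36108 bp) had the midpoint downstream at the distance given, while at Sox21 (41 bp), Tlx3 (43 bp) and Nkx6-1 (79 bp) it lay at the start.

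Lists chosen for the tissue gave few members. Of 20 genes of muscle stem cell identity, 12 had a cluster and 2, Pax7 and Pax3, had a long one. Of 26 immediate early genes, which answer to stimulation within minutes, 5 had a long cluster (19.2%, 6.55 to 39.4%), with 1181 bp at Egr3, which is needed for muscle spindles, 455 bp at Nr4a2, 415 bp at Ier3 and 411 bp at Egr4. Among 22 genes of DNA methylation enzymes and readers, the 2 de novo methyltransferase genes held one, 927 bp at Dnmt3b and 724 bp at Dnmt3a. Of 35 imprinted protein-coding genes 4 held one (11.4%, 3.20 to 26.7%). These were Peg12 (625 bp), the cell cycle inhibitor gene Cdkn1c (528 bp), and Commd1 with Zrsr1, which lies inside it and shares its 403 bp. Of the lists so far, only the interval of the immediate early genes lay above the share of all protein-coding genes. None of the 93 clusters at 44 collagen genes was long. By the limit of 3 clusters that count allows up to 3.23%, below the 3.78% of clusters at all protein-coding genes that were long. Its exact interval of 0 to 3.89% includes that share, so a difference at collagen genes is not settled. None of the 33 clusters at 29 markers of endothelial, blood, fibro-adipogenic, mural, Schwann and myofibre cells was long, which allows up to 9.09%.

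Chromosome X held the highest share of long clusters among chromosomes with at least 20 clusters. Of its 1133 clusters 56 were long (4.94%, 3.76 to 6.37%), against 747 of 26725 on the 19 autosomes (2.80%, 2.60 to 3.00%), so that 6.97% of the long clusters and 3.98% of the shorter ones were on X. Chromosome 16 had the lowest share, 11 of 754 (1.46%, 0.731 to 2.60%), its longest at Tbx1. Among the autosomes the shares reached 3.89% (3.10 to 4.81%) on chromosome 5 and 3.81% on chromosome 2, and the intervals of all neighbours in this order overlap. Chromosome 2 had the most long clusters at developmental family genes, 29 of 80. How many of its genes belong to these families was not counted. Chromosome Y had 0 long clusters among 14, which allows up to 21.4%.

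The long clusters of chromosome X were mostly near gene ends, as on some autosomes, and few were at patterning genes. A bound of a gene lay within 3000 bp of 92.9% of them and of 60.9% of the shorter X clusters. The long clusters of chromosomes 1 and 19 reached 92.3% and 91.3%. Of the 56 on X, 2 (3.57%) were at a developmental family gene, Fgf16 and Pcdh19, against 9.68% to 36.25% on the autosomes. How many X genes belong to these families was not counted. Among X clusters within 1000 bp of a listed start, 9.504% (7.04 to 12.5%) of 484 were long, against 6.03% (5.46 to 6.64%) of 6419 on the autosomes. Away from starts the shares were 1.54% (0.741 to 2.81%) on X and 1.73% (1.55 to 1.92%) on the autosomes, with overlapping intervals. Of the 419 protein-coding X genes with a cluster, 55 (13.1%) had a long one, against 7.52% of all such genes and 11.9% on chromosome 5, the highest autosome. Clusters of any length were longer on X, with a median of 113 bp against 82 to 95 bp on the autosomes. The longest X cluster, of 1365 bp (12006329 to 12007693), was in the noncoding gene Gm34301. Others, named after their values were seen, were at the ubiquitin ligase adaptor gene Klhl15 (1181 bp), the cohesin gene Stag2 (966 bp), Fmr1 (792 bp), whose product binds RNA at synapses, and the histone methyltransferase gene Suv39h1 (785 bp). The sex of the animals is not given in the labels used here.

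**Figure D5:**
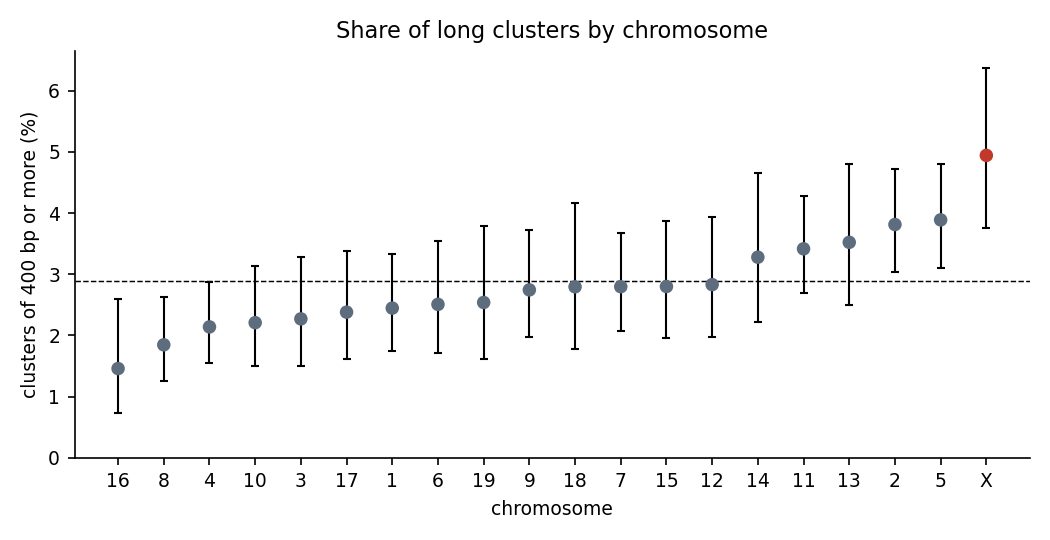
Share of each chromosome's clusters (%) that measure 400 bp or more, with exact 95% intervals as bars, for chromosomes with at least 20 clusters in order of the share, and the share of all clusters as a dashed line. Chromosome X, in red, is highest at 4.94% and chromosome 16 lowest at 1.46%.

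A few long clusters lay at repeated or nongenic sequence. On chromosome 17, 6 long clusters lay side by side from 39843014 to 39848822 and summed to 4879 bp, the longest of 1833 bp. RefSeq places there Rn18s-rs5, a pseudogene related to 18S ribosomal RNA, and the noncoding gene AY036118. Ribosomal RNA genes occur in many near-identical copies, so reads counted at this locus cannot be assigned to it with certainty. A cluster of 780 bp was on the mitochondrial genome (1871 to 2650), 1 of 6 there. The 25 long clusters with no gene within 3000 bp had a median length of 489 bp and lay 3748 to 67679 bp from the nearest gene, with a median of 14601 bp. The longest of them, of 933 bp, was on chromosome 2 (98666393 to 98667325). Another, of 655 bp, lay 3748 bp from the Hox antisense gene Hoxa11os.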

How the data were processed

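Reduced representation bisulfite sequencing (76 cycles) covered 4 Fixated and 4 Live samples. Per the submitters' processing notes, Trim Galore 0.4, Bismark 0.14.4 and ChIPseeker 1.12.1 were used with the mm10 build. How clusters were called, from what coverage and at what significance limit, is not given here by labels or headers. The authors deposited 2 cluster lists, of which start and end were used, and a table of the 21 called regions, not used here. The 2 lists were pooled (start plus 1 to end) and lengths taken as end minus start.

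Gene positions and starts came from RefSeq GRCm38.p6, which has 49993 placed genes; 27025 genes had a listed start. A gene held a cluster that overlapped it or 3000 bp on each side. Genes were matched by symbol to 30 families and lists (806 genes). The members and lists were chosen with earlier results of these data known. Printed promoters were to follow cluster length alone; after sequences were seen, starts inside a gene were left out, as were windows not wholly in the cluster or under another gene. The text names genes by a written rule: the 25 longest clusters, genes with at least 3 long clusters, and up to 4 genes per family in order of length; Pax3, Gata4 and a few examples of distance from a start or on chromosome X were added after their values were seen; a few genes that the rule names are not reported here. Shares carry exact Clopper-Pearson 95% intervals; at 0, the limit is 3 clusters of the total. Read depth is unknown. Overlap functions were tested on simulated intervals. Intervals came from scipy 1.17.1, tables from pandas 2.3.3 and numpy 2.4.6, and plots from matplotlib 3.10.9, in Python 3.11.15. Other length limits, windows, gene sets and midpoints were tried.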

Additional observations from a re-analysis of the deposited data

How the results depend on the processing

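Across 36 alternative settings of the shares, the long clusters stayed on the same side of the shorter ones in all 36. With a minimum of 300 bp the set grew to 1534 clusters, and with 500 bp it shrank to 475; merging neighbours within 1000 bp gave 2723. With 300 bp and 500 bp, 1360 and 497 protein-coding genes held a long cluster. The share near a gene end was 74.9% and 85.7% with these minimums, 65.8% and 87.1% with windows of 1000 and 5000 bp and 73.9% with protein-coding genes. The share inside genes was 18.4% and 12.2% with the minimums and 29.2% and 10.3% with the windows. The share outside was 6.65% with 300 bp, 4.98% with the 1000 bp window and 8.71% with protein-coding genes. The share at developmental genes was 16.8% with 300 bp and 16.9% with transcription factors alone. The start share and its alternatives were added after the data were seen, as were the midpoint settings for the shares inside genes, outside them and at developmental genes. It was 51.7% by midpoint, 65.0% and 41.8% with windows of 3000 and 250 bp, 48.3% and 60.9% with 300 and 500 bp, and 74.0% where all genes had a listed start. Adding the 73 clusters that open the not significant list to the called ones gave 1 long cluster, at Rev3l, or 0.124% of the long clusters, while 0.266% of the shorter ones open that list. The cause of these shifts was not tested beyond the settings' own construction. No paired analysis was possible because cluster lists carry no value per sample, and no replicate could be left out for the same reason. The unknown read depth limits what cluster length shows.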
